A study of Vitis vinifera with 156 samples.

Results

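Buds of the grapevine cultivar Cabernet Sauvignon (Vitis vinifera) were compared between a daily temperature swing and a constant temperature with the same mean. In the fluctuating arm, titled Phase I 7C × Phase II 7±5C, buds were kept at constant 7 °C until day 26 and then moved to a chamber that went up to 12 °C and down to 2 °C every day around a mean of 7 °C. In the constant arm, titled Phase I 7C × Phase II 7C, they stayed at 7 °C throughout. Both arms were sampled at days 34, 41, 55 and 69 with 3 libraries a day, which gives 12 libraries in the fluctuating arm and 12 in the constant arm. These are 24 libraries of a series that holds 86 of a First and 70 of a Second library set, a division taken from the library names. They were chosen by their labels alone: temperature before day 26, temperature after it, and day.

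The study held endodormant buds on cuttings in growth chambers at constant 2, 4, 7, 11 or 22 °C, and moved buds kept at 2, 7 or 11 °C to the fluctuating chamber at day 26. RNA was counted from 3′ end libraries, which read only the end of each messenger RNA, and long transcripts therefore do not collect more reads than short ones. The fluctuating regime ran in a single chamber as far as the text describes it, and so a difference between arms is also a difference between chambers.

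Grapevine buds enter endodormancy in autumn, a state in which they do not grow even in warm conditions until they have been exposed to enough chilling. During the same weeks they acclimate to cold: transcription factors of the CBF family, dehydrins and other protective proteins, and enzymes of soluble sugar metabolism are among the genes known for this response in woody buds. Temperatures that change within a day can count differently towards chilling and hardening than their mean, and the comparison asks whether the swing itself left a mark on the bud transcriptome. The deposited table gives no identifier for its genes. A gene is named here by its line number (line 1 follows the header), and neither their roles nor the labelled tissue could be checked against marker genes.

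Every fluctuating library carried the word Second in its library name and every constant 7 °C library the word First. What the words stand for is not given in the sources used here. The temperature swing and the library set cannot be told apart by the 24 libraries, and values from other arms of either set are therefore given beside the results. The labels do not say whether replicates were separate vines, cuttings or extractions, so p-values measure the spread between these libraries only.

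Total counts ran from 36026 to 7138863 in the fluctuating arm (median 2453078.5) and from 1329878 to 2774660 in the constant arm (median 1932880.5). Of 42413 genes listed, 23769 were detected somewhere in the 24 libraries. Replicates of 1 day correlated across genes with a Pearson r of 0.779 to 0.960 in the fluctuating arm and 0.694 to 0.941 in the constant arm, leaving out the library of low depth, and no pair agreed within sampling noise.

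A pair of libraries stood apart. The fluctuating library of day 34, replicate 2, had 36026 counts and 5319 genes with a count, and 3 counts in it are 83.3 CPM (counts per 1000000 counts of the library); intervals and floors of this kind cover counting error only. The constant library of day 55, replicate 3, had an ordinary depth of 1945847 counts but only 9819 genes with a count, against 12396 and 15349 in the other constant libraries of that day. A principal component analysis of log2 CPM set both apart. On its first axis, with 37.5% of the variance, the shallow fluctuating library lay at 265 and the sparse constant library at 64.6, while the other 22 lay between -27.8 and 0.12. The results were recomputed without both libraries, an alternative chosen after the data had been seen.

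**Figure D1:**
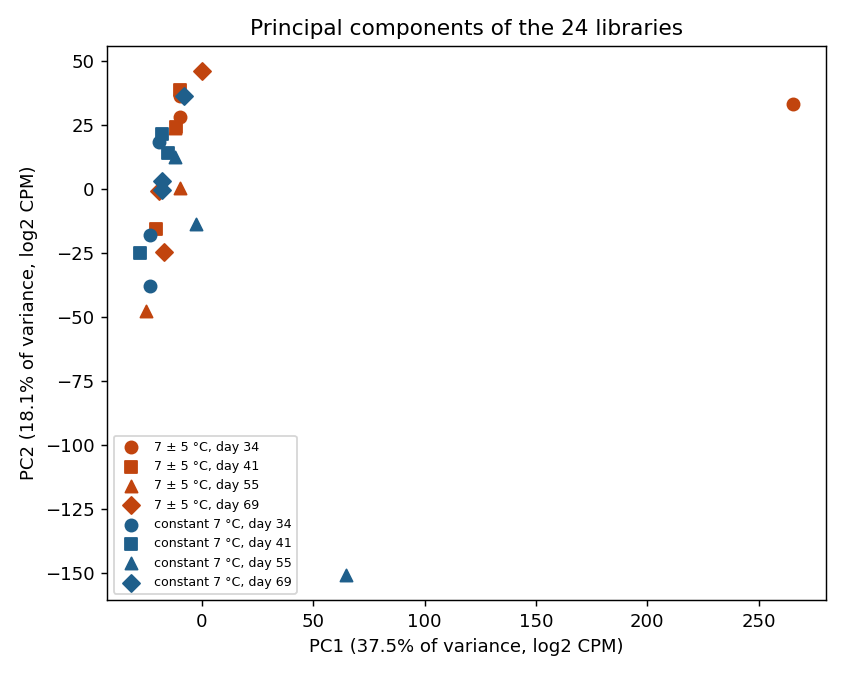
First (horizontal) and second (vertical) principal components of log2 CPM in the 24 libraries, in component score units, with orange for 7 ± 5 °C, blue for constant 7 °C and a marker for each day. A fluctuating library of day 34 lies at 265 on the first component and a constant library of day 55 at -151 on the second, while the remaining libraries of both arms are intermixed.

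The swing around an unchanged mean left no single gene past the threshold. Over the 4 days together, with day as a factor, edgeR's quasi-likelihood test called 0 of 10511 genes at a Benjamini-Hochberg adjusted p under 0.05 (0%). The smallest adjusted p was 0.0607, and 3 genes had one under 0.1. At an unadjusted p under 0.05 there were 1166 genes (11.1%), 559 of them higher and 607 lower in the fluctuating arm. DESeq2 called 196 of 6258 genes that kept an adjusted p, 77 of them higher, and limma voom with sample quality weights called 267, 160 of them higher. Without the 2 libraries that stood apart edgeR called 12 genes, 8 higher and 4 lower. In bulk buds, a lower level can come from fewer cells of a type or from less RNA per cell, and these cannot be told apart.

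The estimates were small as well as uncertain. The median absolute log2 difference was 0.26 with a median standard error of 0.30, and 1.63% of the genes had an estimate larger than 1 on the log2 scale. For 6389 genes (60.8%) the 95% interval of the log2 difference lay within ±1, so a 2-fold difference was outside the interval there. For the other genes the interval reached past ±1 on at least 1 side.

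Replicates held most of the variation, and also most of the degrees of freedom. Summed over genes, differences between libraries of the same arm and day took 67.7% of the sum of squares of log2 CPM. Arm by day took 14.5%, day 12.5% and arm 5.26%, and the degrees of freedom were 16, 3, 3 and 1 in that order. Without the shallow library the shares were 65.9%, 14.1%, 13.8% and 6.17%. With only the 23 libraries of at least 1000000 counts, 6.57% of the first axis, which covered 29.3% of the variance, lay between the arms, and 0.0993% of the second, which covered 23.3%. The fourth component, with 6.13% of the variance, was the one among the first 4 that separated the arms most, with 34.1% of it between them. The typical standard deviation of a gene between replicates was 0.93 in the fluctuating arm and 0.73 in the constant arm on the log2 CPM scale. Without the 2 libraries that stood apart it was 0.54 in the fluctuating arm and 0.55 in the constant arm.

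Counts of genes at an unadjusted p under 0.05 differed between the 4 days. The edgeR test of whether the difference between the arms changed with day called 0 of 11464 genes (0%). At day 34 edgeR called 0 of 11464 genes (0%) and 1029 (8.98%) had an unadjusted p under 0.05, 343 higher and 686 lower in the fluctuating arm. A fit of day 34 alone called 339 genes in edgeR, 86 of them higher. A fit with an estimate of the library set difference subtracted called 1984, 764 of them higher. That estimate comes from constant 4 °C and also holds any response of its own to 4 °C. At day 41 the fit of all 4 days called 0 (0%), with 223 (1.95%) at an unadjusted p under 0.05, 69 of them higher. At day 55 it called 0 (0%), with 1648 (14.4%), 1050 higher and 598 lower. At day 69 it called 0 (0%), with 256 (2.23%), 185 higher and 71 lower. The days with the larger counts were the ones that held a library standing apart. Without those 2 libraries the counts at an unadjusted p under 0.05 were 1497, 432, 1166 and 491 of 12121 genes at days 34, 41, 55 and 69, and the calls stayed at 0 on each day. DESeq2 called 0, 1, 60 and 0 genes at these 4 days and limma voom with quality weights 1758, 6, 0 and 1, so the 2 tools placed their calls at different days.

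Across 10511 genes, the log2 differences of day 34 and day 41 had a Pearson r of 0.48. Those of days 55 and 69 had an r of 0.26. Days 34 and 55 had an r of -0.16 and days 34 and 69 one of -0.07. Days 41 and 55 had -0.03 and days 41 and 69 had 0.17. The libraries of each day are separate, but the days share their library sets, and genes are not independent replicates, so these are descriptions. The early days thus resembled each other more than they resembled the late ones.

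The days were also compared by the genes whose 3 fluctuating and 3 constant libraries did not overlap, on log2 CPM after TMM scaling. There were 2416 of 10511 such genes at day 34 (23%), 1036 at day 41 (9.86%), 1087 at day 55 (10.3%) and 856 at day 69 (8.14%). By this count day 34 stood apart and day 55 did not, unlike the counts by p. At day 34, 676 of them were higher and 1740 lower in the fluctuating arm. The shallow library is 1 of the 3 fluctuating libraries of that day. A gene without a count there can only stand low, which favours lower over higher. These counts were not repeated without it. Over all 4 days, 6 genes (0.0571%) were free of overlap in the same direction, 2 higher and 4 lower. At 3 or more days 64 genes (0.609%) were, 25 higher and 39 lower. None of the counts without overlap was set against what chance gives. No gene separated all 12 fluctuating from all 12 constant libraries (0%). Day means differed in the same direction at all 4 days in 2004 genes (19.1%), 779 higher and 1225 lower, and those of day 34 include the shallow library.

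Examples of single genes are given by 4 genes. They are, among 1531 genes with a mean of at least 10 CPM and a log2 difference of the same sign at every day, the 2 higher and the 2 lower with the smallest p. None passed the threshold in edgeR.

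Gene 38323 averaged 10.6 ± 5.44 CPM in the fluctuating arm and 31.7 ± 9.92 CPM in the constant arm (SD, n = 12 each). At day 34 its libraries held 9.32, 0 and 4.40 CPM in the fluctuating arm, against 42.3, 20.9 and 21.02 CPM in the constant arm, where the 0 is the shallow library. At day 41 they held 13.8, 8.36 and 9.93 CPM in the fluctuating arm, against 25.001, 27.9 and 46.6 CPM in the constant arm. All fluctuating libraries of these days lay under all constant ones. At day 55 the fluctuating libraries had 11.8, 19.8 and 8.32 CPM and the constant ones 35.5, 31.8 and 47.8 CPM. At day 69 the fluctuating libraries had 16.9, 8.66 and 15.4 CPM and the constant ones 18.8, 34.2 and 28.4 CPM. The arms were apart at every day in CPM, though across days the ranges met, from 0 to 19.8 CPM in the fluctuating arm and from 18.8 to 47.8 CPM in the constant arm. The fitted log2 difference was -1.20 ± 0.22 (SE) with an adjusted p of 0.0607 in edgeR.

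Gene 18799 had the same pattern at a similar level, 11.5 ± 5.74 CPM in the fluctuating arm and 29.1 ± 17.2 CPM in the constant arm (SD, n = 12 each). Its fluctuating libraries had 10.03, 27.8 and 8.39 CPM at day 34, the 27.8 CPM being 1 count in the shallow library, against 26.6, 39.004 and 25.2 CPM in the constant arm. At day 41 they had 11.5, 6.20 and 11.3 CPM in the fluctuating arm, against 26.6, 20.5 and 78.2 CPM in the constant arm. One constant library of day 41 was therefore far above all others. At day 55 the fluctuating libraries had 11.8, 9.92 and 9.57 CPM, against 22.9, 16.5 and 24.7 CPM in the constant arm. At day 69 the fluctuating libraries had 7.83, 7.87 and 16.5 CPM, against 36.99, 12.6 and 19.3 CPM in the constant arm. The arms overlapped at days 34 and 69 and were apart at days 41 and 55. The log2 difference was -1.12 ± 0.22 (SE), with an adjusted p of 0.0758 in edgeR.

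Gene 33939 was the one with the largest difference upward among the 4, with 122.99 ± 118 CPM in the fluctuating arm and 50.7 ± 31.7 CPM in the constant arm (SD, n = 12 each). At day 34 it had 40.5, 55.5 and 35.6 CPM in the fluctuating arm, against 16.7, 16.97 and 42.03 CPM in the constant arm; the 55.5 CPM rest on 2 counts. At day 41 it had 41.1, 38.6 and 62.8 CPM in the fluctuating arm, against 30.7, 30.3 and 22.6 CPM in the constant arm. Levels were higher late than early in both arms. At day 55 the fluctuating libraries had 250.5, 208 and 58.2 CPM, against 73.2, 68.2 and 76.1 CPM in the constant arm. At day 69 the fluctuating libraries had 419, 105.4 and 160.5 CPM, against 41.7, 123.6 and 66.4 CPM in the constant arm. In unscaled CPM the arms overlapped at days 34, 55 and 69 and were apart at day 41. The log2 difference between the arms was 1.34 ± 0.25 (SE), with an adjusted p of 0.0607 in edgeR. Over the 35 days the fitted log2 change was 2.71 ± 0.50 (SE) in the fluctuating arm, with an adjusted p of 0.139, and 2.05 ± 0.47 at constant 7 °C, with an adjusted p of 0.534.

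Gene 29999 averaged 61.6 ± 24.6 CPM in the fluctuating arm and 37.3 ± 12.9 CPM in the constant arm (SD, n = 12 each). At day 34 the arms overlapped, with 27.95, 55.5 and 45.97 CPM in the fluctuating arm, where the 55.5 CPM are again 2 counts, and 57.6, 45.1 and 31.8 CPM in the constant arm. At day 41 it had 45.1, 41.3 and 69.5 CPM in the fluctuating arm and 28.1, 24.7 and 58.7 CPM in the constant arm. Both days thus showed overlap. At day 55 the fluctuating libraries had 120.9, 49.03 and 53.6 CPM and the constant ones 21.4, 46.7 and 27.8 CPM. At day 69 the fluctuating libraries had 78.3, 69.3 and 82.5 CPM and the constant ones 25.01, 44.7 and 36.3 CPM. The late days were free of overlap. The log2 difference was 0.96 ± 0.20 (SE), with an adjusted p of 0.112 in edgeR.

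**Figure D2:**
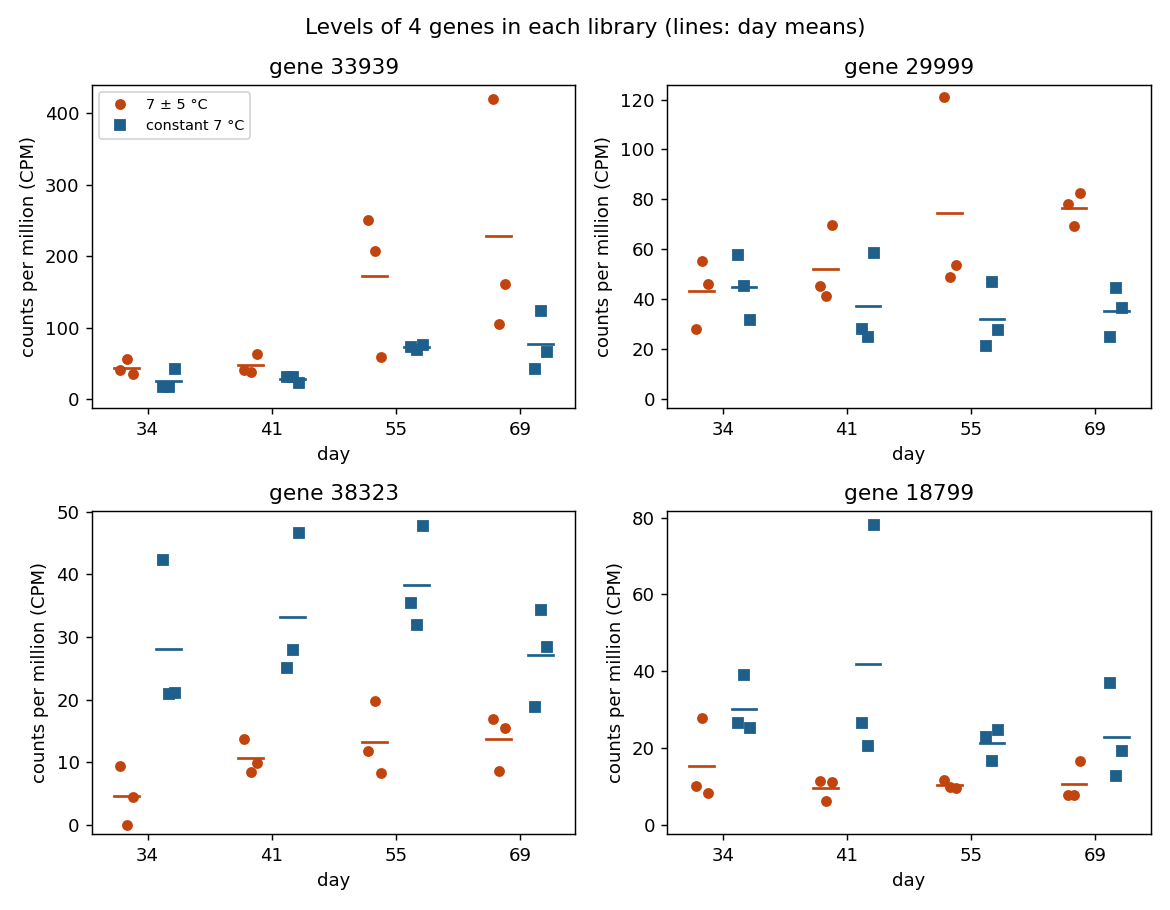
CPM (vertical) of 4 genes in each library by day (horizontal), with the 7 ± 5 °C libraries (circles, n = 3 a day) left of the constant 7 °C libraries (squares, n = 3 a day) and a line at each mean. Genes 33939 and 29999 lie mostly higher and genes 38323 and 18799 mostly lower in the fluctuating arm, and the 0 CPM of gene 38323 at day 34 is the shallow library.

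Without the 2 libraries that stood apart, genes 33939, 38323 and 18799 had adjusted p-values of 0.0469, 0.0391 and 0.0431 in edgeR, and gene 29999 had 0.0507. Over 8 alternatives the adjusted p of gene 38323 ran from 1.5e-05 to 0.509, and its log2 difference from -1.45 to -0.98. For gene 33939 the log2 difference ran from 0.92 to 1.53 and its adjusted p from 0.00066 to 0.636. Direction did not change in any of these 8 for any of the 4 genes, which had been chosen in these libraries for 1 direction at every day. The alternatives refit the same libraries or a part of them, so the direction is no separate support. At single days no adjusted p of the 4 genes passed the threshold. On the TMM-scaled log2 CPM of the counts without overlap, the arms were apart at 3 days for genes 33939, 38323 and 18799 and at 2 days for gene 29999.

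The other arms show these genes across both library sets, using libraries of at least 1000000 counts. Gene 38323 averaged 9.90 ± 6.06 CPM in the fluctuating arm that came from 2 °C and 12.2 ± 8.92 CPM in the one from 11 °C (SD, n = 11 each). At constant temperatures it had 24.7 ± 9.08 CPM at 2 °C (n = 12), 14.6 ± 3.86 at 4 °C (n = 10), 18.2 ± 12.1 at 11 °C (n = 11) and 15.1 ± 15.4 at 22 °C (n = 7). Constant 4 °C and 22 °C at these days are, like the fluctuating arms, of the Second set, and the means of all of them lay under those of constant 2, 7 and 11 °C, which are of the First. Gene 18799 had 9.77 ± 3.14 CPM in the fluctuating arm from 2 °C, 7.00 ± 4.20 in the one from 11 °C, 9.35 ± 3.48 at constant 4 °C and 10.5 ± 2.88 at 22 °C, against 23.3 ± 9.40 at 2 °C and 10.5 ± 5.51 at 11 °C. For this gene constant 11 °C was as low as the arms of the Second set.

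Gene 33939 averaged 153.2 ± 116.5 CPM in the fluctuating arm from 11 °C, 40.02 ± 28.9 CPM in the one from 2 °C and 102.7 ± 46.05 CPM at constant 4 °C. It had 15.02 ± 8.36 CPM at constant 2 °C, 44.5 ± 21.5 at 11 °C and 8.97 ± 5.96 at 22 °C, so its levels did not sort by library set. Gene 29999 had 65.5 ± 19.1 CPM in the fluctuating arm from 2 °C, 71.2 ± 23.1 in the one from 11 °C, 55.3 ± 10.7 at constant 4 °C and 123.1 ± 28.2 at 22 °C. It had 34.9 ± 12.1 CPM at constant 2 °C and 50.4 ± 33.5 at 11 °C. For gene 29999 the means of all arms of the Second set lay above those of constant 2, 7 and 11 °C, of the First. The part of the library set in these 4 differences was not tested.

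To place the fluctuating buds on a scale of temperature, each library was scored with genes that differed between constant 2 °C and constant 11 °C at days 7 to 26, in libraries outside the 24. In that comparison edgeR called 2899 of 10512 genes (27.6%), and the 720 at least 2-fold higher and the 718 at least 2-fold lower at 2 °C were used. The score is the mean centred log2 CPM of the 720 minus that of the 718, so that cold-held buds score high. It averaged 1.26 ± 0.24 at constant 2 °C, 0.26 ± 0.27 at 4 °C, -0.30 ± 0.20 at 7 °C and -0.96 ± 0.36 at 11 °C (SD, n = 12 each), and -1.13 ± 0.51 at 22 °C (n = 9), which is the order of the temperatures.

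The fluctuating arm scored -0.47 ± 0.14 (SD, n = 12), against -0.30 ± 0.20 at constant 7 °C, on the side of constant 11 °C. The mean of the day differences was -0.17, which is 25.1% of the distance between constant 7 °C and constant 11 °C. The fluctuating arms that came from 2 and 11 °C scored -0.44 ± 0.23 and -0.48 ± 0.22, close to the arm from 7 °C although their buds had spent 26 days elsewhere. No test was made on the score.

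By day, the fluctuating libraries scored -0.47, -0.40 and -0.46 at day 34, against -0.14, -0.39 and -0.25 at constant 7 °C. At day 41 they scored -0.47, -0.47 and -0.48, against -0.13, -0.40 and -0.11 at constant 7 °C. On both days all fluctuating libraries lay under all constant ones, at day 34 by a margin that is small beside the spread. The -0.40 of day 34 is the shallow library, where both gene groups of the score stood low, at -1.90 and -1.50. With libraries of at least 1000000 counts the fluctuating arm averaged -0.48 ± 0.15 (SD, n = 11), against -0.31 ± 0.20 at constant 7 °C (n = 12). At day 55 the scores were -0.20, -0.27 and -0.46 in the fluctuating arm, against -0.45, -0.57 and -0.07 at constant 7 °C, and at day 69 they were -0.76, -0.57 and -0.56, against -0.59, -0.05 and -0.43. The arms overlapped on both late days. The difference of day means was -0.19, -0.26, 0.05 and -0.27 at days 34, 41, 55 and 69, and 0.20 at day 55 without the sparse constant library. The 4 days therefore did not all point one way.

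**Figure D3:**
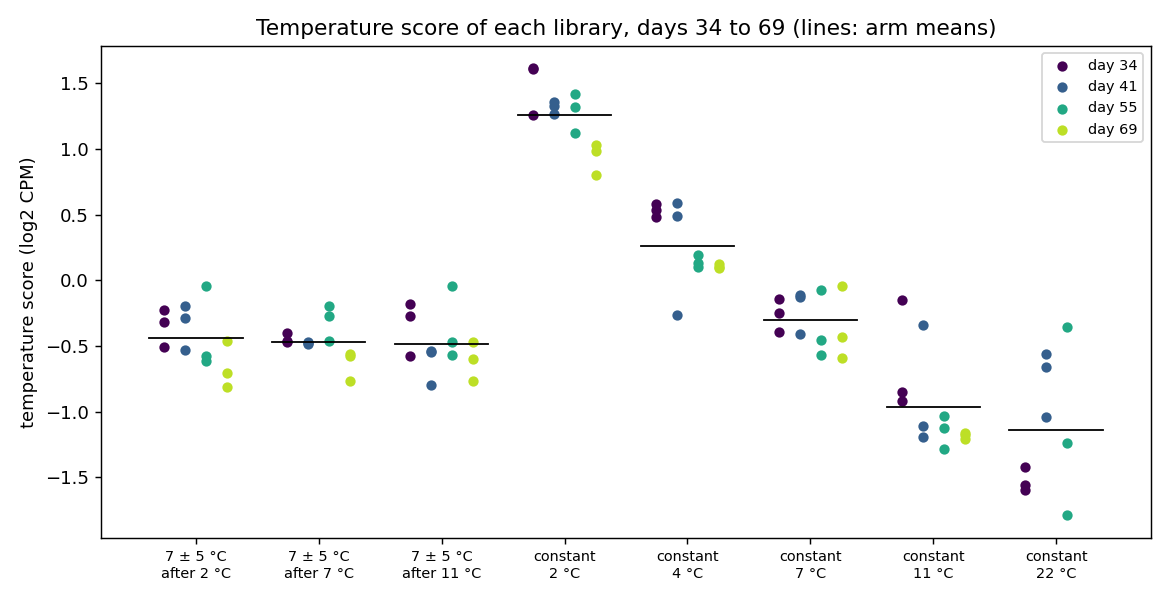
Temperature score of each library of days 34 to 69 in log2 CPM, with the fluctuating arms at the left, constant temperatures at the right, a colour for each day and a line at each arm's mean. Constant arms fall in the order of temperature, and the fluctuating arm from 7 °C averages -0.47, between constant 7 °C at -0.30 and constant 11 °C at -0.96.

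The genes behind the score moved little one by one. Of the 558 cold-raised genes tested, 236 (42.3%) were higher and 322 lower in the fluctuating arm, with a median log2 difference of -0.07 and 0 called by edgeR. Of the 681 cold-lowered genes tested, 420 (61.7%) were higher and 261 lower, with a median of 0.12 and 0 called. Over all 10511 genes 50.3% were higher and the median was 0.00. At an unadjusted p under 0.05, 21 cold-raised genes were higher and 39 lower, and 52 cold-lowered genes were higher and 30 lower.

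Genes that separated constant 7 °C from constant 22 °C at days 7 to 20 (3944 of 10472 called, 37.7%) gave medians of the same signs. Of the 1150 tested that had been higher at 7 °C, 473 (41.1%) were higher in the fluctuating arm, with a median of -0.09. Of the 1100 that had been lower at 7 °C, 756 (68.7%) were higher, with a median of 0.19. No gene of either list was called by edgeR, and at an unadjusted p under 0.05 there were 27 higher and 110 lower of the first, while in the second the 23 lower genes were outnumbered by the higher ones. By day the median of the first list was -0.51, -0.12, 0.24 and -0.01 at days 34, 41, 55 and 69, and that of the second 0.40, 0.20, 0.16 and 0.09. The separation between these lists was thus widest at day 34, the first sampling after the move, beside medians over all genes of -0.13, -0.03, 0.16 and 0.03. All libraries behind these lists were of the First set. The lists also share genes with those of the score. Of the 720 cold-raised genes, 261 were in the list higher at 7 °C and 5 in the list lower. Of the 718 cold-lowered genes, 342 were in the list lower at 7 °C and 15 in the list higher. The same signs are therefore no separate support.

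Genes that changed with time in dormant buds were followed in both arms. At constant 2 and 11 °C, 219 of 10719 genes were called for a change over days 34 to 69 (2.04%), and those that rose or fell at least 2-fold made a rising list of 62 genes and a longer falling list. In the fluctuating arm 43 of 56 tested genes of the rising list had a positive slope, with a median log2 change of 0.30 over 35 days, as did 30.1% of the falling list, with a median of -0.37. At constant 7 °C 54 of 58 tested genes of the rising list had a positive slope, with a median of 0.82, and 14.3% of the falling list, with a median of -0.87. Over all genes tested the median change was 0.07 in the fluctuating arm and 0.00 in the constant arm.

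The difference between the slopes had a median of -0.61 over the rising and 0.41 over the falling genes, against 0.07 over all genes. Single genes did not pass: edgeR called 0 of 10993 slope differences (0%), with 779 (7.09%) at an unadjusted p under 0.05, and DESeq2 and limma voom with quality weights each called 0. Within the fluctuating arm edgeR called 0 of 9911 trends (0%), with 974 (9.83%) at an unadjusted p under 0.05, DESeq2 called 4 and limma voom 367. At constant 7 °C edgeR called 0 of 10186 (0%), with 602 (5.91%), DESeq2 called 13 and limma voom 0. An offset between the library sets that is the same at every day cancels in a slope.

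By day, the falling genes had their largest difference at day 55. Their median log2 difference was -0.27, -0.19, 0.66 and -0.01 at days 34, 41, 55 and 69, and that of the rising genes 0.44, 0.19, -0.07 and -0.13. The mean level of the falling genes at day 55 was 0.35, 0.18 and 0.08 in the fluctuating libraries, against -0.56, -0.32 and -0.69 at constant 7 °C, on a centred log2 CPM scale. These groups did not overlap. At day 69 the levels were -0.34, -0.39 and -0.23 in the fluctuating arm, against -0.57, 0.22 and -0.59 at constant 7 °C, and the groups overlapped. Without the sparse constant library the day 55 median of the falling genes was 0.69 and that of the rising genes -0.35.

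The test of whether the difference between the arms changed with day also called 0 of 11464 genes in edgeR (0%), with 736 (6.42%) at an unadjusted p under 0.05. DESeq2 called 0 and limma voom with quality weights 6.

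**Figure D4:**
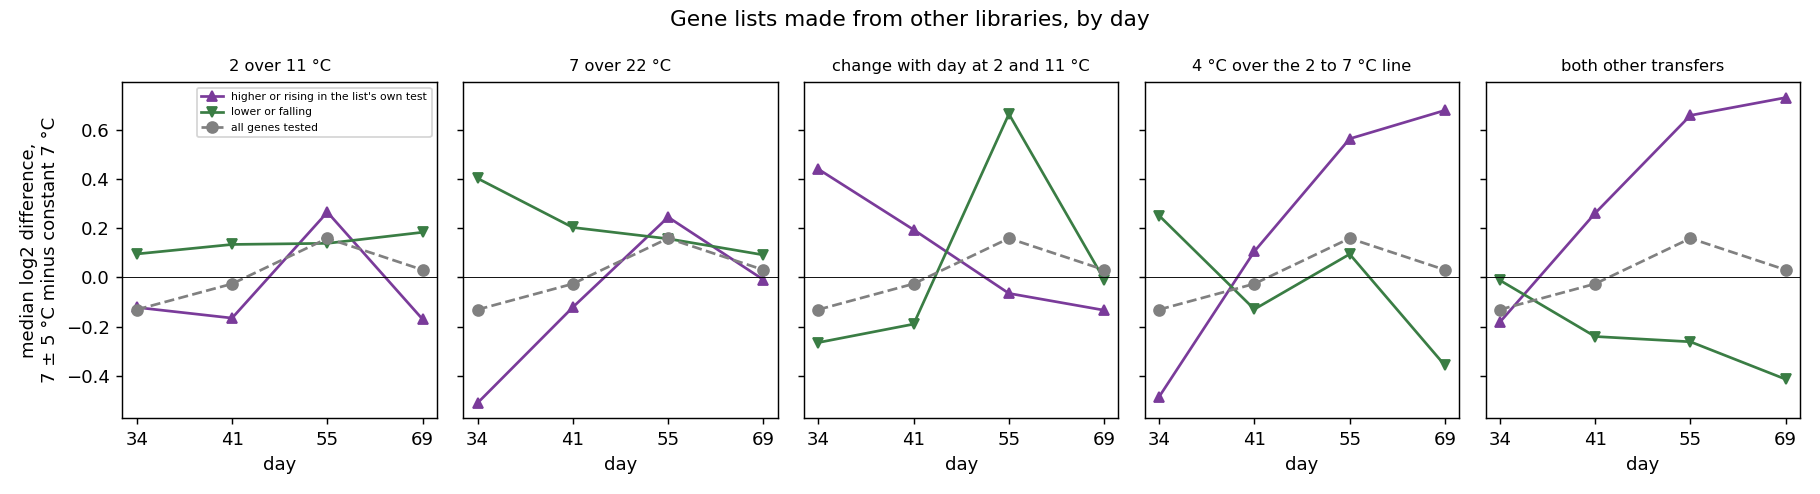
Median log2 difference, 7 ± 5 °C minus constant 7 °C, of 10 gene lists at each day, with lists higher or rising in their own test as purple triangles pointing up, lists lower or falling as green triangles pointing down, and all genes tested as grey circles. The lists from both other transfers separate with time to 0.73 and -0.41 at day 69, and the list falling with day reaches 0.66 at day 55.

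The moves from 2 and 11 °C into the same fluctuating chamber offer a set of genes seen outside the 24 libraries. After 2 °C, 2514 of 10683 genes (23.5%) were called between the fluctuating and the constant arm, and after 11 °C 2259 of 11605 (19.5%). They shared 556 genes, 22.1% of the first and 24.6% of the second. These shares are near those over all genes tested, 19.5% after 11 °C and 23.5% after 2 °C. Of the 556, 248 were higher in both and 130 lower in both, while 178 went in opposite directions. The fluctuating arms are of the Second and the constant ones of the First set in these comparisons too.

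After 7 °C, with no change in the mean, 220 of 246 genes higher in both other transfers were higher too (89.4%), with a median log2 difference of 0.38. Of the tested genes lower in both, 95 were lower and 27 higher (22.1%), with a median of -0.32. None was called by edgeR, and at an unadjusted p under 0.05 there were 61 higher and 1 lower in the first list and 0 higher and 27 lower in the second. By day the first list had medians of -0.18, 0.26, 0.66 and 0.73 at days 34, 41, 55 and 69, and the second -0.01, -0.24, -0.26 and -0.41. Genes shared by the other transfers were thus near the median of all genes at day 34 and further from it later. At these 4 days the first list averaged 0.33, 0.65, 1.04 and 0.81 in the fluctuating arm, in centred log2 CPM without the shallow library. At constant 4 °C, of the Second set and without a swing, it averaged 1.27, 1.23, 0.30 and 1.12, with 1 library at day 41. At 22 °C, also of the Second set, it was 1.01, 0.67 and -0.09 at days 34, 41 and 55, the last in 1 library. The second list averaged -0.90, -0.97, -0.44 and -0.85 at constant 4 °C. The part of the library set was not tested.

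Constant 4 °C had no swing but its libraries are of the Second set, while those of constant 2 and 7 °C are of the First. A gene that departs at 4 °C from the course between 2 and 7 °C may follow the set or its own response to temperature, which cannot be told apart. At days 7 to 26, 3869 of 12221 genes (31.7%) were called away from a straight line between 2 and 7 °C, 785 at least 2-fold higher and 570 at least 2-fold lower. The higher list held 131 of the 248 genes higher in both other transfers (52.8%), and the lower list 39 of the 130 lower in both (30%). Of the 677 higher-list genes tested, 512 (75.6%) were higher in the fluctuating arm after 7 °C, with a median of 0.25, and of the 373 lower-list genes 42.4% were higher, with a median of -0.08.

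The median of the higher list was -0.49, 0.11, 0.56 and 0.68 at days 34, 41, 55 and 69. Its mean level was 0.02, 0.36, 0.85 and 0.60 in the fluctuating arm at those days, against 0.47, 0.26, 0.09 and 0.14 at constant 7 °C, on a centred log2 CPM scale and without the shallow library. At constant 4 °C it was 1.54, 1.48, 0.43 and 1.32, with 1 library at day 41 and 3 at the other days. In the other fluctuating arms it was 0.80, 0.65, 0.35 and 0.05 after 2 °C and 0.60, 1.19, 0.95 and 1.05 after 11 °C. Libraries of 1 group lay far apart in several of these means: those of constant 4 °C at day 55 were -0.21, -0.25 and 1.75, and the 2 libraries after 11 °C at day 34 were -0.58 and 1.77. The mean after 2 °C at day 55 also rests on 2 libraries. The differences between these means were not tested.

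Single libraries differed as much as arms did. At day 69 the higher list stood at 1.47, -0.40 and 0.72 in the 3 fluctuating libraries, against 0.59, 0.39 and -0.57 at constant 7 °C. At day 55 it stood at 1.32, 0.79 and 0.43, against 0.19, 0.49 and -0.41. The groups overlapped on both days. At day 34 the 2 fluctuating libraries of sufficient depth stood at 0.07 and -0.02, against 0.50, 0.25 and 0.66 at constant 7 °C, and did not overlap. Whether the library set moved these genes in the comparison after 7 °C was not tested.

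**Figure D5:**
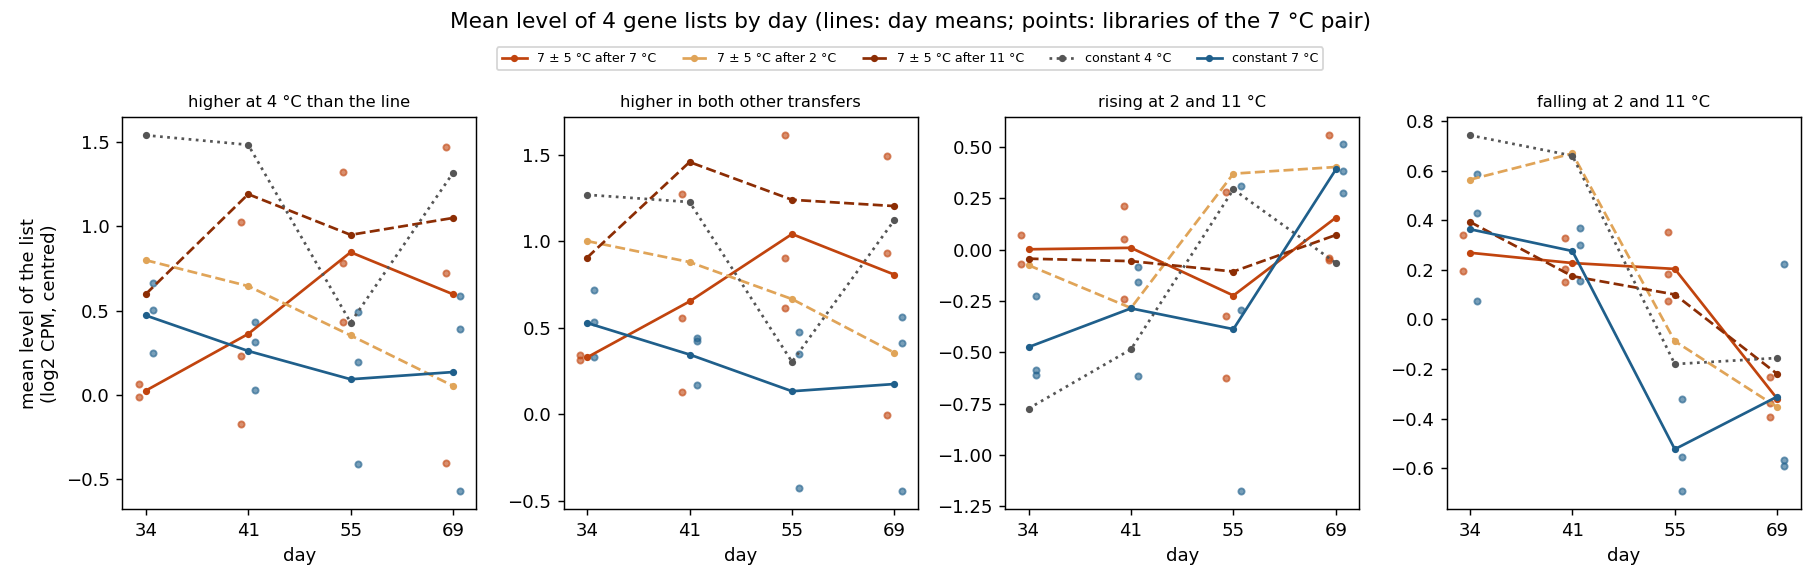
Mean level of 4 gene lists by day in centred log2 CPM, in libraries of at least 1000000 counts, with a line for each of the 3 fluctuating arms and for constant 4 and 7 °C, and points for single libraries of the fluctuating arm after 7 °C and of constant 7 °C. In the left panel the fluctuating arm after 7 °C stands at 0.02, 0.36, 0.85 and 0.60 and constant 7 °C at 0.47, 0.26, 0.09 and 0.14, with single libraries widely spread.

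The effect of the swing after 7 °C was tested against the effect of the move after 2 °C, in 1 fit of 48 libraries. An offset between the sets that both pairs of arms share cancels in this test. EdgeR called 583 of 12698 genes (4.59%; 19.9% at an unadjusted p under 0.05), 308 with a higher and 275 with a lower effect after 7 °C. For 522 of them both effects had been estimated separately, and 474 had the larger absolute effect after 2 °C. The median absolute log2 difference was 0.29 after 7 °C and 1.21 after 2 °C. These genes were chosen for a difference between the effects in the same libraries, which favours a large effect on 1 side. Of the 583, 429 were also called between constant 2 and 11 °C at days 7 to 26, in separate libraries. All 227 that had been higher at 2 °C had the higher effect after 7 °C, and all 202 that had been lower at 2 °C the lower effect. The level at constant 2 °C enters this difference with a plus sign, which favours these directions, so they are no separate support. Leaving out 1 replicate number in every group gave between 100 and 146 calls.

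Against the move from 11 °C, edgeR called 270 of 13099 genes (2.06%; 20.9% at an unadjusted p under 0.05). Of 233 estimated in both, which were chosen in the same way, 209 had the larger absolute effect after 11 °C. The median absolute log2 difference was 0.40 after 7 °C and 1.28 after 11 °C. Among the genes called, the levels at constant 2 and 11 °C were compared as well. Among those also called between constant 2 and 11 °C, 71 had been higher at 2 °C and had the lower effect after 7 °C, 28 had been lower at 2 °C and had the higher effect, 6 had been lower at 2 °C and had the lower effect, and 3 had been higher at 2 °C and had the higher effect. The level at constant 11 °C enters this difference with a plus sign too. The count rested on few libraries: it was 587, 0 and 33 without replicate 1, 2 or 3 of every group.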

How the data were processed

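Per the labels' protocols, total RNA of buds was made into QuantSeq 3′ libraries, which were read to 85 bases on a NextSeq500, 95 to a lane. The authors deposited raw, whole-number counts per gene for 156 libraries, all of which have a label. The submitters' processing notes name FastQC, STAR and DESeq2; their roles and versions, the genome build, the annotation and any use of molecular identifiers are not given in the sources used here. Where a gene has a near-identical copy, its count is uncertain.

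Groups were taken from the labels and the library set from the library names. The count test was the quasi-likelihood test of edgeR 4.0.16 under R 4.3.3, with TMM scaling and the filterByExpr filter, and with p-values adjusted by the Benjamini-Hochberg method over all genes tested and a threshold of 0.05. The main comparison had day as a factor. The single days came from 1 fit of 8 group means, which shared an estimate of the spread, trends from day as a number, and differences between transfers from contrasts of group means averaged over 4 days. CPM were counts per 1000000 counts of the library, and log2 CPM had a prior count of 2. DESeq2 1.42.0 and limma 3.58.1 (voom with sample quality weights) were alternatives, beside RLE scaling, no filter, a minimum depth of 1000000 counts, libraries left out, replicate blocks and a subtraction of the library set difference, estimated as constant 4 °C minus the straight line between constant 2 and 7 °C (weights 0.6 and 0.4). The scripts were tested on simulated data.

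Gene lists came from libraries outside the 24, at an adjusted p under 0.05 in edgeR and at least 2-fold, or any fold for the genes called in both other transfers. List medians and counts are descriptions without a test. The rule for the 4 named genes took the 2 higher and the 2 lower with the smallest p among those with a mean of at least 10 CPM and a log2 difference of the same sign at all 4 days. The comparison, the lists and the rule were chosen with earlier results of these data known.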

Additional observations from a re-analysis of the deposited data

Results flagged for a closer look

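The difference between the fluctuating and the constant arm was not the same after each earlier temperature. In a test between these differences, 583 of 12698 genes (4.59%) had an effect after 7 °C that differed from the effect after 2 °C, 308 of them higher and 275 lower after 7 °C, in edgeR's quasi-likelihood test. Between the effects after 7 °C and after 11 °C, 270 of 13099 genes (2.06%) differed, and 587, 0 and 33 did without replicate 1, 2 or 3 of every group. Without a replicate number the first count was between 100 and 146. Each effect is set against its own constant arm, so this test alone does not tell a difference between fluctuating arms from one between constant arms. Directly between constant 2 and 11 °C at days 34 to 69, edgeR called 3515 of 11069 genes (31.8%). The fluctuating arms were not tested against each other. The temperature score averaged -0.47, -0.44 and -0.48 in the fluctuating arms from 7, 2 and 11 °C, against -0.30, 1.26 and -0.96 at constant 7, 2 and 11 °C. In the first case the mean temperature of the other move changed upward and in the second downward, and after 7 °C it did not change.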

How the results depend on the processing

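The count of genes called between the fluctuating arm and constant 7 °C depended on the tool. Beside 0 in edgeR it was 1 with RLE scaling, 110 with no filter on low counts, 196 with DESeq2, 267 with limma voom with quality weights and 12 without the 2 libraries that stood apart. It was 1735, 834 higher and 901 lower, with an estimate of the library set difference subtracted. That estimate comes from constant 4 °C and holds the set and any response of its own to 4 °C, which cannot be told apart. Leaving out a replicate number in every group gave 0 each time, and leaving out each of the 24 libraries gave 0 to 4. The 4 came without the sparse constant library of day 55, and 1 each without constant day 34 replicate 3, day 55 replicate 2 or day 69 replicate 1, or fluctuating day 55 replicate 2 or 3. At day 34 the count was 110 with no filter, 1758 with limma voom, 1984 with the estimate of the set difference subtracted and 339 in a fit of that day alone. At day 41 it was 13 with no filter, 1 with DESeq2 and 6 with limma voom. At day 55 it was 254 with no filter and 60 with DESeq2, and 0 to 3 with a replicate number left out, the 3 without replicate 2. At day 69 it was 9 with no filter and 1 with limma voom. The arm by day test gave 286 with no filter and 6 with limma voom, and the slope difference gave 0 under each alternative run.

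Trends in the fluctuating arm numbered 3 with no filter, 4 with DESeq2 and 367 with limma voom. At constant 7 °C they numbered 45 with no filter, 13 with DESeq2 and 3 without the 2 libraries. The effect after 7 °C minus that after 2 °C gave 2292 calls with limma voom and 100 to 146 with a replicate number left out. The effect after 7 °C minus that after 11 °C gave 1061 with no filter, 656 with DESeq2, 4254 with limma voom and 0 to 587 with a replicate number left out. The causes of these changes were not tested. With RLE scaling the median of the genes falling with day was -0.04 in place of 0.02, and the other list medians kept their sign.

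Replicate numbers were not taken as pairs. The deviations of 12 same-numbered pairs from their group means correlated with a mean r of 0.0907 (-0.200 to 0.527), 4 of them over 0.1, against -0.0403 in 24 other pairs, and 5 of 12 correlated best with their own number. With the number as a block or with pairs within days as a block, 0 genes were called over the 4 days, and pairs within days gave 1 at day 69. The block on the number gave 569 calls against the move from 2 °C and 181 against the move from 11 °C.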

Other observations

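Fluctuating libraries put more of their counts into a few genes. The 10 most abundant genes of each library held 41.9 ± 4.15% of the counts in the fluctuating arm and 34.6 ± 5.34% at constant 7 °C (SD, n = 12 each), and the fluctuating mean was higher on 4 of 4 days. An exact permutation test within days over 160000 arrangements, two-sided, gave p = 0.0015 for the difference of 7.27 percentage points, and 0.0029 without the 2 libraries that stood apart. The measure was chosen after the values had been seen. The arms were free of overlap at days 34 and 41 and overlapped at days 55 and 69. Day means were 42.9, 44.8, 38.9 and 40.9% in the fluctuating arm, against 33.1, 33.1, 33.9 and 38.4% at constant 7 °C, for days 34, 41, 55 and 69.

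In other arms of the same days, with libraries of at least 1000000 counts, the share was 42.4 ± 3.02% in the fluctuating arm from 2 °C, 40.5 ± 3.98% in the one from 11 °C and 43.8 ± 3.08% at constant 4 °C, all of the Second set. It was 38.7 ± 3.97% at constant 2 °C and 34.2 ± 4.09% at 11 °C, of the First set, and 26.9 ± 8.61% at 22 °C, of the Second set at these days. The part of the library set in the difference was not tested. Of the 10 genes most abundant over the 24 libraries, 9 had a positive log2 difference, from -0.06 to 0.82 over all 10 after TMM scaling, while 6 had a higher mean CPM in the fluctuating arm. None was called by edgeR, whose lowest adjusted p among them was 0.176, while 5 had an unadjusted p under 0.05.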
